A study of Homo sapiens with 16 samples.

Results

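The genes described here encode the proteins of actin stress fibres, of the focal adhesions that anchor these fibres to the matrix, and of caveolae, the small membrane pits linked to them. They were listed by the role of their products and not by a limit on measured values, but with earlier results of these data known. The set holds 45 of the 35810 genes in the deposited tables, each found under 1 identifier, and all 45 passed the filter on low counts, which left 16705 genes for testing. They were measured by RNA sequencing in pancreatic progenitors differentiated to day 19 from human embryonic stem cells of the SA121 line, which carried an NGN3-GFP reporter in every group, so that all values come from 1 line. Latrunculin B (LatB), a drug that binds actin monomers and so removes filaments, was given at 0.5 µM for 3 h (n = 3), 6 h (n = 3), 12 h (n = 2) or 24 h (n = 3). The controls were a 0 h group (n = 3) and a 24 h group in the vehicle DMSO (n = 2). Control 0 h is tagged as DMSO too, although the series text describes it as taken before any treatment. Each LatB time was set against control 0 h, except 24 h, which was set against control 24 h. With no control at 3, 6 or 12 h, the drug cannot be told apart there from time or vehicle.

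Stress fibres are bundles of actin filaments crosslinked by alpha-actinins and filamins and stabilised by calponins, transgelins and caldesmon. Where a bundle ends, talin and vinculin tie it to integrins at the focal adhesion, kindlins help talin switch integrins on, and LIM-domain proteins such as zyxin are recruited as tension rises. Many genes of this machinery are textbook targets of serum response factor, whose MRTF coactivators bind monomeric actin.

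The 16 libraries held from 23609727 to 33515398 estimated reads, and replicates of a group correlated at 0.98 or more in log2 CPM across genes, except at 12 h (0.967). CPM are estimated counts scaled to library size and between libraries by the TMM method. The labels do not say whether replicates were separate cultures, so p-values measure the spread between these samples, which may be technical. Pancreatic progenitor markers were present, with 9 of 10 at 1 CPM or more in every library. Of 10 mesenchymal or smooth muscle markers, 7 to 9 reached 1 CPM, with DES at 0 to 0.136 CPM and MYH11 at 0.622 to 2.41 CPM over the 16 libraries. The smooth muscle actin gene ACTA2 stood at 23.03 to 28.7 CPM in control 0 h, 22.2 and 28.4 in control 24 h, 9.06 to 15.8 at 3 h, 8.62 to 12.6 at 6 h, 14.1 and 46.1 at 12 h, and 9.95 to 17.4 at 24 h of LatB. Of the 9 tested markers of this list, 7 had negative and 2 positive log2 changes at 3 h (median -0.58). COL1A2 stood at 142, 176 and 363 CPM at 3 h against 104, 63 and 87 in control 0 h, so sums can differ in direction from most markers. The summed level of those 10 markers was 204.7 to 308 CPM in control 0 h, 204 to 232 in control 24 h, 283 to 457 at 3 h, 243 to 315 at 6 h, 236 and 1106 at 12 h, and 183 to 276 at 24 h of LatB. LatB 12 h replicate 2 thus stood apart, with 684 CPM of the collagen gene COL3A1 against 101 in replicate 1, and its 4 endothelial markers summed to 40.5 CPM against 9.62. Results at 12 h are therefore given with and without that library where a call changed or a value moved by over 1.5 times. The 5 epithelial markers summed to 6728 to 7273 CPM in the controls. In LatB their sum was 5484 to 6423 CPM at 3 h and 5578 to 5732 at 6 h. It was 4008 to 4497 CPM at 12 h and 4678 to 5048 at 24 h. Single epithelial markers did not all fall: 3 were called higher and 2 lower at 6 h, and 1 higher and 2 lower at 12 h. The 8 endocrine markers summed to 38.2 to 47.4 CPM in control 0 h, 74 and 87 CPM in control 24 h, and 116 to 360 CPM at 24 h of LatB. The part of all these markers in the results was not tested. In bulk RNA, fewer cells of a type and less RNA per cell cannot be told apart.

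Some libraries were low across the whole gene set. LatB 24 h replicate 2 was the lowest of its group for 34 of the 45 genes (75.6%), against 36.0% of 13125 genes with a mean of at least 50 counts. For LatB 3 h replicate 3 it was 32 of 45 (71.1% against 37.7%), and for LatB 6 h replicate 3 it was 28 of 45 (62.2% against 35.5%). LatB 3 h replicate 3 also had the most COL1A2 of its group, 363 CPM against 142 and 176, while ACTA2, COL3A1, LUM, DCN and PDGFRB were lowest there. LatB 24 h replicate 2 had the highest endocrine sum of its group, 359.8 CPM, against 116.1 in replicate 1 and 325.7 in replicate 3. Replicate 3 was the lowest for 4 of the 45 genes (8.9% against 23.8%). COL3A1 (28.5 CPM against 152 and 72.2), LUM (3.90 against 19.0 and 8.51), ACTA2 and PDGFRB were also lowest in LatB 24 h replicate 2. COL1A2 was highest there, 124 CPM against 47.1 and 55.6.

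Before treatment the set covered a wide range of levels per length. In control 0 h the most abundant transcripts were those of CALD1 (caldesmon, 804 ± 36.98 TPM, SD, n = 3), ACTN4 (alpha-actinin-4, 771 ± 45.9), TAGLN2 (transgelin-2, 579 ± 10.6), CNN3 (calponin-3, 404 ± 8.54) and FLNA (filamin A, 301 ± 3.65). TPM is a level that allows for transcript length, summed here over all annotated transcripts of a gene, also short ones or ones with no coding sequence defined. In control 0 h the 188-base CALD1-213 held a mean of 20.9% of the CALD1 TPM. The 4990-base coding transcript ACTN4-201 held 20.2% of the ACTN4 TPM. By CPM, which does not allow for length, FLNA was the highest member in control 0 h (mean 1609). The 4 least abundant were TNS1 (1.89 TPM), FERMT1 (1.97 TPM), CAVIN1 (2.06 TPM) and CAV1 (2.27 TPM). These low genes rested on 40 to 358 estimated reads per library, so their values carried more counting error than most others. CNN1 also had few reads in LatB, down to 33 at 12 h.

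Upstream sequence was available from RefSeq (GRCh38.p14) for 39 of the 45 genes, as windows from 250 bases before to 50 bases after the transcription start. A CArG box, the element that serum response factor binds (CC, any 6 of A or T, then GG, on either strand), was found in 3 of the 39 windows (7.7%) and in 351 of 27305 windows over all genes (1.29%). The 3 are shown because they are the only windows of the set that hold the box, 70 bases each, read 5′ to 3′ on the gene's strand with the box in capitals. They lie at chr2:105438575-105438644 (minus strand), chr19:1026489-1026558 (plus strand) and chrX:154374689-154374758 (minus strand).
FHL2: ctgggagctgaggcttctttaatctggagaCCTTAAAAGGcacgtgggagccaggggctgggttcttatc
CNN2: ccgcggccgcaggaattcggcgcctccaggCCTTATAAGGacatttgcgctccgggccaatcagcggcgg
FLNA: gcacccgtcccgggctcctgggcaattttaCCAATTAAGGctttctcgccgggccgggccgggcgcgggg
The centres of the boxes were 96.5, 84.5 and 89.5 bases before the start. Their genes did not share 1 time course: FLNA was lower than control at all 4 times, CNN2 at 3 of them, and FHL2 was lower at 3 h and 6 h and higher at 24 h. The TEAD motif GGAATG was in 5 of the 39 windows (12.8%, against 14.05% of all windows), namely those of TRIP6, FLNC, CALD1, KANK1 and VCL. The AP-1 motif TGANTCA was in 4 (10.3%, against 7.76%) and the GC box GGGCGG in 29 (74.4%, against 44.6%), and no site of 1 motif overlapped a site of another. A match is a description of these letters only. CAVIN1, FERMT1, PARVA, PTK2, SORBS3 and TAGLN had no window in the table.

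Most of the set fell in LatB and few members rose. At 3 h, 19 of the 45 genes were lower and 3 higher (background 14.7% of all genes tested called lower and 16.8% called higher). At 6 h, 31 were lower and 5 higher (background 20.4% and 22.9%). At 12 h, 29 were lower and 1 higher (background 16.8% and 19.1%), and at 24 h, 28 were lower and 2 higher (background 18.8% and 21.9%). A gene was called by edgeR's quasi-likelihood test at a Benjamini-Hochberg adjusted p under 0.05 over all 16705 genes. The median log2 fold change of the 45 was -0.20 at 3 h, -0.46 at 6 h, -0.50 at 12 h and -0.37 at 24 h, while that of all genes stayed between -0.01 and 0.01. Summed over the set, the level was 9121 to 9621 CPM in control 0 h and 9340 to 9842 in control 24 h. It was 6995 to 8292 CPM at 3 h, 6430 to 6762 at 6 h, 5521 to 5585 at 12 h and 5614 to 6697 at 24 h, below every control library throughout.

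**Figure D1:**
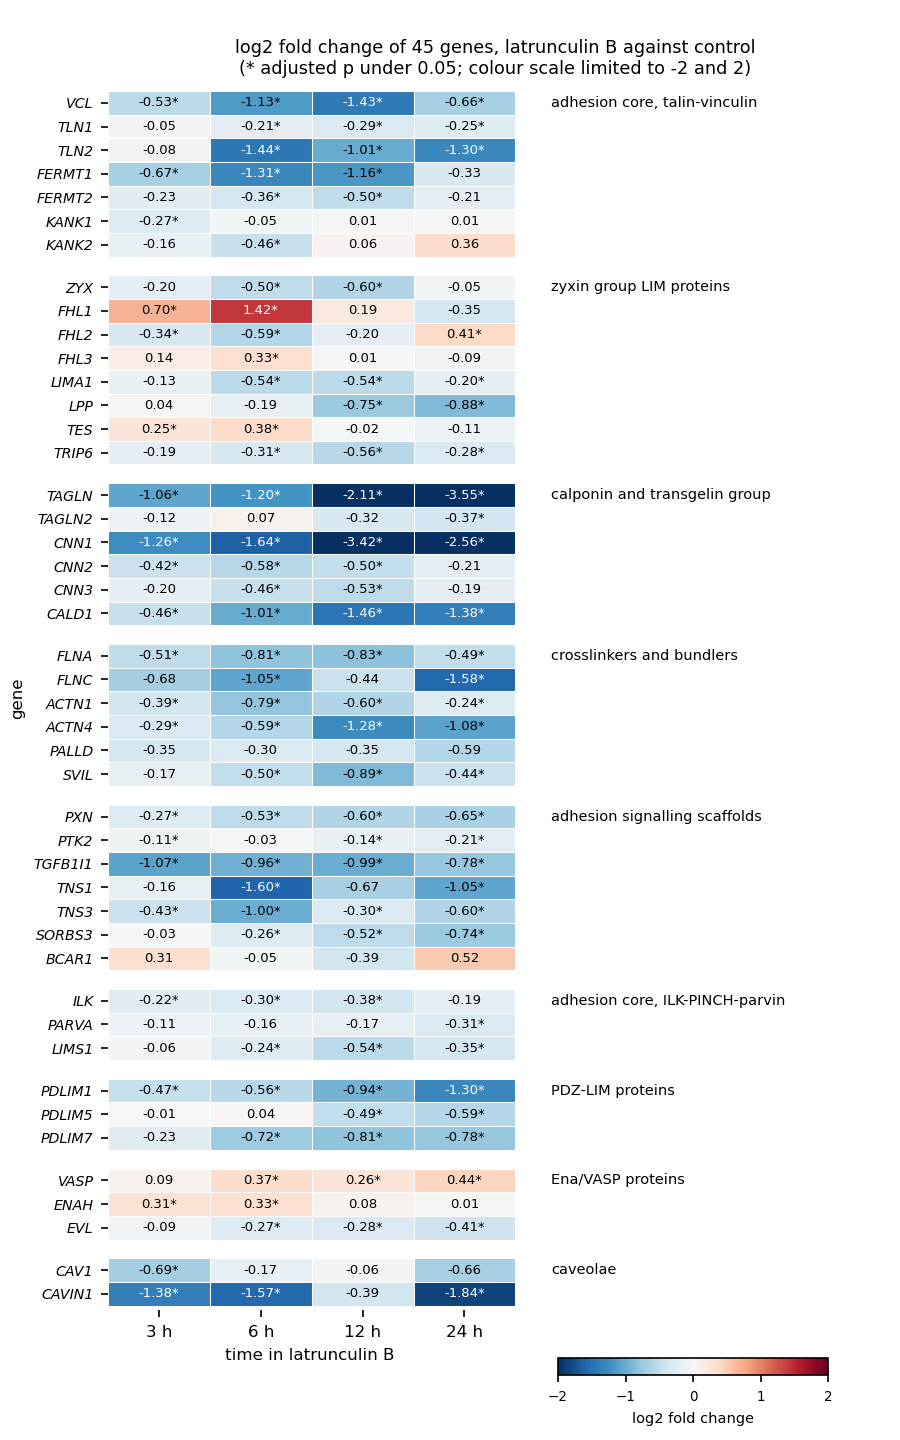
Log2 fold changes of the 45 genes (rows, grouped by role) at 3, 6 and 12 h of LatB against control 0 h and at 24 h against control 24 h (columns), with an asterisk where the adjusted p was under 0.05. TAGLN and CNN1 reached the lowest values, -3.55 at 24 h and -3.42 at 12 h, and FHL1 at 6 h the highest, 1.42.

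By gene, 11 members were lower at all 4 times: VCL, PXN, TNS3, TGFB1I1, TAGLN, CALD1, CNN1, FLNA, ACTN1, ACTN4 and PDLIM1. A further 14 were lower at 3 times, 7 at 2 and 5 at 1. FHL2 was lower at 2 times and higher at 1. VASP was higher at 3 times, FHL1, TES and ENAH at 2, and FHL3 at 1. PALLD and BCAR1 were called at none. Of all genes tested, 3.93% were lower at all 4 times, 5.62% at 3, 9.18% at 2 and 11.3% at 1, each with no time higher, 1.35% were lower at 2 and higher at 1, and 29.9% were called at none. The shares higher were 4.79% at all 4 times, where the set had 0 members, 7.03% at 3, 9.66% at 2 and 12.1% at 1, each with no time lower. The 3, 6 and 12 h comparisons share the control 0 h libraries, so these tallies are not independent. In these 4 comparisons all called members had groups that did not overlap, except EVL at 12 h, as did 98.2%, 98.5%, 97.1% and 99.8% of all called genes at 3, 6, 12 and 24 h. Over all genes tested, called or not, the groups did not overlap for 48.2%, 57.4%, 51.4% and 63.9%.

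The calls were least secure at 3 h. Of the 22 made there, 10 held whichever library was left out. Without LatB 3 h replicate 3 the count was 12, with ACTN4 at -0.27, CALD1 at -0.36, CAVIN1 at -1.15, PDLIM1 at -0.32 and TAGLN at -0.84 among those no longer called, and without control 0 h replicate 2 it was 14. The share of all genes called fell too. It was 31.6% with all libraries, 24.9% without LatB 3 h replicate 3 and 25.5% without control 0 h replicate 2. In contrast to the members at 3 h, 32 of 36 calls at 6 h, 27 of 30 at 12 h and 24 of 30 at 24 h held whichever library was left out. Some members were called in a fit with a library left out and not with all. At 3 h these were CNN3 (-0.24) and PARVA (-0.22) without LatB 3 h replicate 2, and PDLIM7 (-0.37) and ZYX (-0.24) without control 0 h replicate 1. At 6 h it was LPP without LatB 6 h replicate 2 (-0.25). At 24 h they were CAV1 (-0.84), CNN3 (-0.24), FERMT2 (-0.30), ILK (-0.28) and PALLD (-0.86) without LatB 24 h replicate 1, and FERMT1 without LatB 24 h replicate 3 (-0.40).

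No member was called between the controls. Between control 24 h and control 0 h, 0 of the 45 genes were called (background 0.0299% higher and 0.221% lower), 1 had an unadjusted p under 0.05 and DESeq2 also called 0. That 1 gene was FHL2, higher in control 24 h by 0.39 with no overlap (unadjusted p = 0.00746 by edgeR's test). The log2 differences ran from -0.28 to 0.41 with a median of 0.07.

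The calponin and transgelin group, which binds along actin filaments, gave the deepest falls. TAGLN (transgelin, also called SM22, ENSG00000149591.17, chr11:117199370-117207464, plus strand, GRCh38 as all gene positions here) stood at 149, 158 and 159 CPM in control 0 h and 170.1 and 189 in control 24 h. In LatB it was 82.8, 93.1 and 48.05 at 3 h, 79.5, 67.6 and 55.6 at 6 h, 24.9 and 46.8 at 12 h and 23.6, 6.63 and 15.996 at 24 h. No LatB library reached a control library, and the lowest of all was LatB 24 h replicate 2. TAGLN changed on the log2 scale by -1.06 (SE 0.33, adjusted p = 0.0269) at 3 h, -1.20 (SE 0.34, adjusted p = 0.0106) at 6 h, -2.11 (SE 0.40, adjusted p = 0.00132) at 12 h and -3.55 (SE 0.39, adjusted p = 1.96e-05) at 24 h, where the level was 8.53% of its control. The call at 3 h was lost without LatB 3 h replicate 3 (-0.84), control 0 h replicate 2 (-1.06) or control 0 h replicate 3 (-1.04).

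CNN1 (calponin-1, a brake on myosin known best from smooth muscle, ENSG00000130176.8, chr19:11538767-11550323, plus strand) stood at 18.5, 21.1 and 20.3 CPM in control 0 h and 24.7 and 28.3 in control 24 h. In LatB it was 8.41, 11.5 and 5.18 at 3 h, 7.65, 6.21 and 5.39 at 6 h, 1.44 and 2.23 at 12 h and 6.58, 1.96 and 5.02 at 24 h, all below the controls. Relative to control, the change in CNN1 was -1.26 (SE 0.33, adjusted p = 0.0103) at 3 h, -1.64 (SE 0.34, adjusted p = 0.00157) at 6 h, -3.42 (SE 0.45, adjusted p = 7.80e-05) at 12 h and -2.56 (SE 0.37, adjusted p = 0.000143) at 24 h. CNN1 had its lowest group mean at 12 h, where both libraries were low, also replicate 2 with its high mesenchymal markers, while TAGLN had its lowest at 24 h. The CNN1 values at 12 h rested on 33 and 66 estimated reads, and that of LatB 24 h replicate 2 on 64.

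CALD1 (caldesmon, which holds myosin off actin, ENSG00000122786.20, chr7:134744252-134970729, plus strand) was the most abundant member per length. It stood at 1313, 1343 and 1368 CPM in control 0 h and 1218 and 1354 in control 24 h, and in LatB at 1025, 1095 and 801 at 3 h, 686, 669 and 649 at 6 h, 419.8 and 553 at 12 h and 565, 407 and 507 at 24 h. Every treated library was below every control. Against its controls CALD1 changed by -0.46 (SE 0.13, adjusted p = 0.0154) at 3 h, -1.01 (SE 0.13, adjusted p = 4.68e-05) at 6 h, -1.46 (SE 0.15, adjusted p = 1.24e-05) at 12 h and -1.38 (SE 0.14, adjusted p = 1.28e-05) at 24 h, and the call at 3 h was lost without LatB 3 h replicate 3.

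The other members of that group moved less. CNN2 changed by -0.42 at 3 h, -0.58 at 6 h and -0.50 at 12 h and was not called at 24 h (-0.21 ± 0.10). CNN3 (ENSG00000117519.16, chr1:94896949-94927223, minus strand) stood at 435, 429 and 449.7 CPM in control 0 h, 417 and 461 in control 24 h, 382, 396 and 369 at 3 h, 315, 317 and 326 at 6 h, 289.9 and 317 at 12 h and 411, 335 and 408 at 24 h. The fall of CNN3 was called at 6 h, -0.46 (SE 0.07, adjusted p = 0.000202), and at 12 h, -0.53 (SE 0.08, adjusted p = 0.000261), and at 24 h its LatB libraries lay just below the controls without a call (-0.19 ± 0.08). TAGLN2 (ENSG00000158710.15, chr1:159918107-159925507, minus strand), the paralog of transgelin found in many cell types, stood at 499, 487 and 479 CPM in control 0 h, 397 and 432 in control 24 h, 455, 491 and 399 at 3 h, 548, 516 and 478 at 6 h, 459.9 and 321 at 12 h and 336, 295 and 332 at 24 h. With all libraries TAGLN2 was called at 24 h alone, -0.37 (SE 0.12, adjusted p = 0.0297), and that call was lost without LatB 24 h replicate 2 (-0.31) or either control 24 h library (-0.43 and -0.31). At 12 h TAGLN2 was -0.32 with both libraries, -0.09 without replicate 2, and -0.61 without replicate 1, a call.

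**Figure D2:**
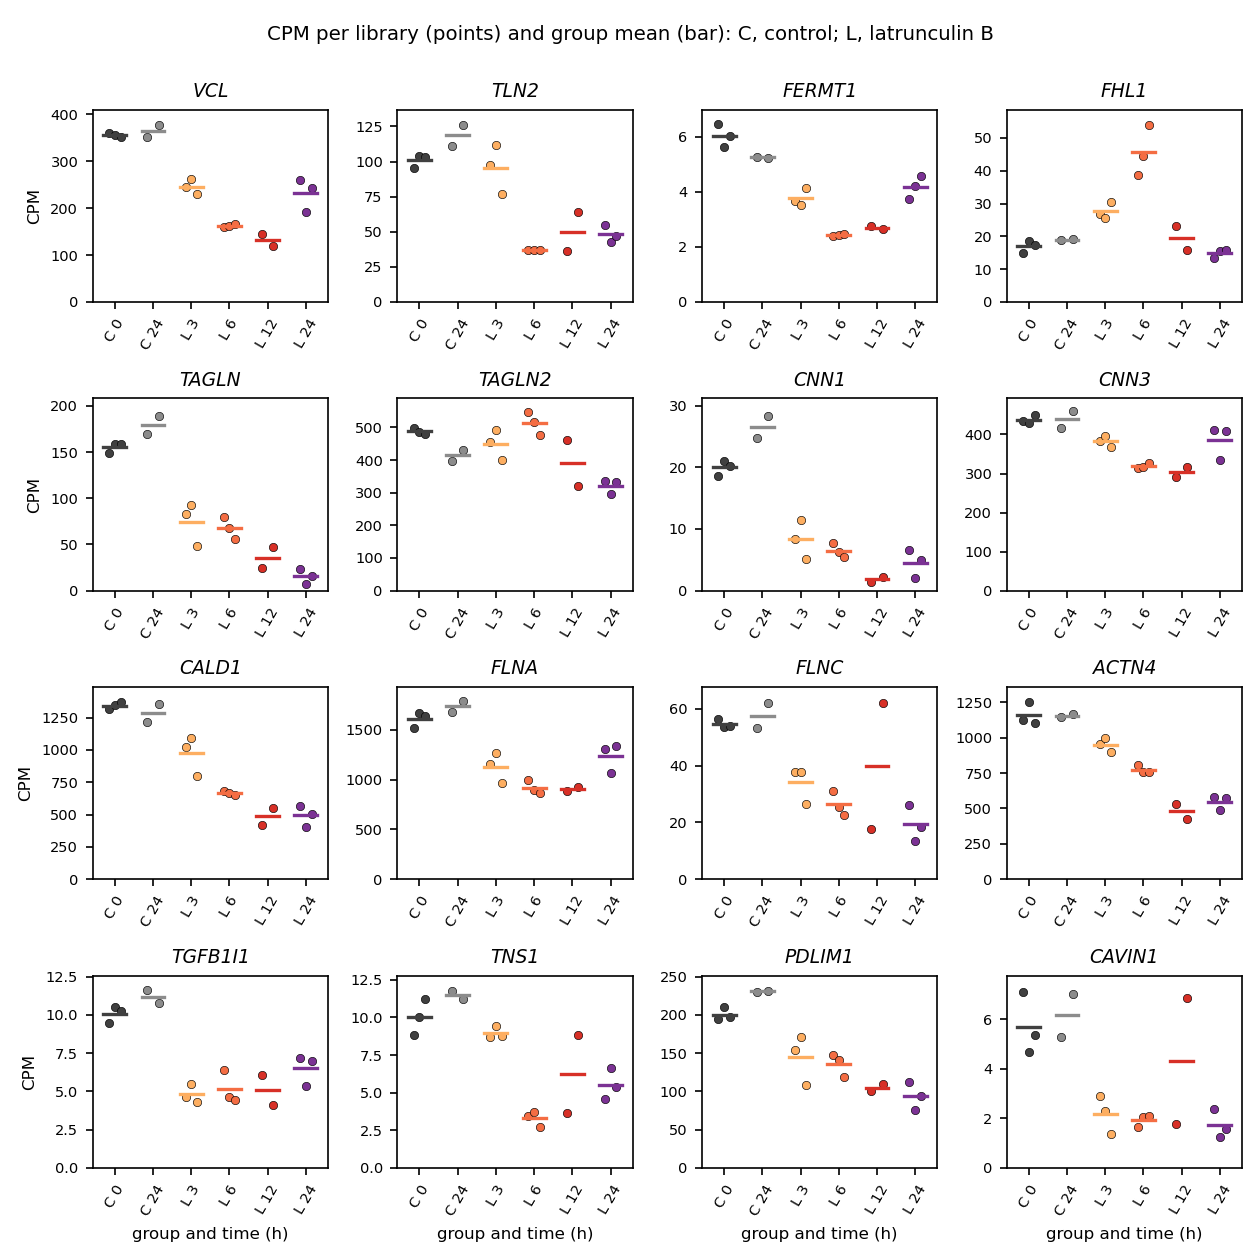
CPM of 16 genes in every library (points) with the group mean (bar), by group and time in hours. TAGLN, CNN1, CALD1, ACTN4 and PDLIM1 lie below all control libraries at each LatB time, VCL and FERMT1 are lowest at 6 h or 12 h and higher at 24 h, FHL1 peaks at 6 h, and FLNC, CAVIN1 and TNS1 have 1 high library at 12 h.

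Among the talin and vinculin group, the core that couples integrins to actin, vinculin fell early and deeply. VCL (vinculin, ENSG00000035403.18, chr10:73995193-74121363, plus strand) stood at 359, 357 and 351 CPM in control 0 h, 352 and 377 in control 24 h, 245, 262 and 230.5 at 3 h, 160.5, 162 and 166 at 6 h, 144 and 120.1 at 12 h and 261, 191 and 242 at 24 h. The groups did not overlap at any time, and the 12 h libraries were the lowest. For VCL the log2 change was -0.53 (SE 0.10, adjusted p = 0.000812) at 3 h, -1.13 (SE 0.10, adjusted p = 1.42e-06) at 6 h, -1.43 (SE 0.11, adjusted p = 1.26e-06) at 12 h and -0.66 (SE 0.10, adjusted p = 0.000301) at 24 h. From 6 h to 24 h of LatB, VCL rose by 0.51 (SE 0.10, adjusted p = 0.00104) without reaching the controls.

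The talins parted. TLN1, the talin of most cells, changed by -0.29 at its lowest, at 12 h, while TLN2 (talin-2, ENSG00000171914.17, chr15:62390526-62844631, plus strand) stood at 95.7, 104 and 103 CPM in control 0 h, 111 and 126 in control 24 h, 97.4, 112 and 77.2 at 3 h, 37.3, 37.3 and 36.98 at 6 h, 36.3 and 63.9 at 12 h and 54.8, 42.5 and 47.1 at 24 h. TLN2 overlapped with control at 3 h and was clear of it afterwards, with the 6 h libraries within 1 CPM of each other. Tested against control, TLN2 differed by -0.08 (SE 0.17, adjusted p = 0.763) at 3 h, -1.44 (SE 0.17, adjusted p = 2.45e-05) at 6 h, -1.01 (SE 0.20, adjusted p = 0.00144) at 12 h and -1.30 (SE 0.19, adjusted p = 0.000132) at 24 h. Without LatB 12 h replicate 1 the 12 h value was -0.66, and without replicate 2 it was -1.48. The TLN1 calls were lost at 12 h without LatB 12 h replicate 1 (-0.16) and at 24 h without control 24 h replicate 2 (-0.21).

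Of the kindlins, which activate integrins together with talin, FERMT1 (kindlin-1, ENSG00000101311.17, chr20:6074845-6123214, minus strand) stood at 6.46, 5.63 and 6.02 CPM in control 0 h, 5.29 and 5.23 in control 24 h, 3.68, 3.54 and 4.16 at 3 h, 2.398, 2.42 and 2.49 at 6 h, 2.76 and 2.64 at 12 h and 3.75, 4.24 and 4.59 at 24 h. The difference of FERMT1 from control was -0.67 (SE 0.11, adjusted p = 0.000542) at 3 h, -1.31 (SE 0.12, adjusted p = 1.98e-06) at 6 h, -1.16 (SE 0.13, adjusted p = 2.53e-05) at 12 h and -0.33 (SE 0.12, adjusted p = 0.0516) at 24 h. It was lower at the first 3 times and rose by 0.78 (SE 0.12, adjusted p = 0.000181) from 6 h to 24 h. FERMT2 (kindlin-2), far more abundant, changed by -0.36 at 6 h and -0.50 at 12 h. KANK1 and KANK2, talin-binding proteins of the adhesion rim, fell once each (KANK1 -0.27 at 3 h, KANK2 -0.46 at 6 h). Both calls were lost in some left-out fits with folds close to these: KANK1 lost it without LatB 3 h replicate 3 (-0.28), control 0 h replicate 2 (-0.26) or control 0 h replicate 3 (-0.28), and KANK2 without LatB 6 h replicate 3 (-0.42), control 0 h replicate 1 (-0.46) or control 0 h replicate 2 (-0.43). At 12 h KANK1 was 0.01 with both libraries, and it was called in opposite directions without replicate 2 (0.21) and without replicate 1 (-0.23). KANK2 there was 0.06 with both libraries, -0.43 without replicate 2 and 0.41 without replicate 1.

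Crosslinkers and bundlers fell too, the alpha-actinins in different degree. ACTN4 (alpha-actinin-4, ENSG00000130402.14, chr19:38647649-38731589, plus strand) stood at 1128, 1252 and 1106 CPM in control 0 h, 1144 and 1166 in control 24 h, 954, 994 and 899 at 3 h, 805, 758 and 755 at 6 h, 534 and 423 at 12 h and 579, 491 and 573 at 24 h. All treated libraries lay under 1000 CPM and all controls over 1100. ACTN4 changed on the log2 scale by -0.29 (SE 0.09, adjusted p = 0.0188) at 3 h, -0.59 (SE 0.09, adjusted p = 0.000113) at 6 h, -1.28 (SE 0.10, adjusted p = 1.21e-06) at 12 h and -1.08 (SE 0.09, adjusted p = 3.63e-06) at 24 h. The 3 h call was lost without LatB 3 h replicate 3 or control 0 h replicate 2 (-0.25). ACTN1 was called at every time, -0.39 ± 0.05 at 3 h, -0.79 ± 0.05 at 6 h, -0.60 ± 0.06 at 12 h and -0.24 ± 0.06 at 24 h (log2 fold change ± SE).

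Both filamins, which link actin into networks, fell, FLNA at every time and FLNC at 6 h and 24 h. FLNA (filamin A, ENSG00000196924.19, chrX:154348524-154374634, minus strand) stood at 1516, 1669 and 1643 CPM in control 0 h, 1685 and 1794 in control 24 h, 1161, 1272 and 965 at 3 h, 1000.1, 893 and 863 at 6 h, 891 and 922 at 12 h and 1312, 1069.9 and 1339.6 at 24 h. Relative to control, the change in FLNA was -0.51 (SE 0.10, adjusted p = 0.0019) at 3 h, -0.81 (SE 0.10, adjusted p = 3.51e-05) at 6 h, -0.83 (SE 0.12, adjusted p = 0.000135) at 12 h and -0.49 (SE 0.11, adjusted p = 0.0038) at 24 h. FLNC (filamin C, the muscle filamin, ENSG00000128591.16, chr7:128830406-128859274, plus strand) stood at 56.4, 53.7 and 53.9 CPM in control 0 h, 53.2 and 62.003 in control 24 h, 37.9, 37.6 and 26.6 at 3 h, 30.98, 25.4 and 22.7 at 6 h, 17.8 and 62.1 at 12 h and 26.2, 13.6 and 18.3 at 24 h. At 12 h replicate 2 was as high as the controls, and it is the library with the high mesenchymal markers. Against its controls FLNC changed by -0.68 (SE 0.33, adjusted p = 0.139) at 3 h, -1.05 (SE 0.34, adjusted p = 0.022) at 6 h, -0.44 (SE 0.37, adjusted p = 0.386) at 12 h and -1.58 (SE 0.37, adjusted p = 0.0041) at 24 h. Without replicate 2 the 12 h value was -1.62, a call, and without replicate 1 it was 0.18. The 6 h call was lost without LatB 6 h replicate 2 (-1.04), LatB 6 h replicate 3 (-0.98) or control 0 h replicate 1 (-1.03). SVIL (supervillin, which ties myosin and actin to membranes) changed by -0.50 at 6 h, -0.89 at 12 h and -0.44 at 24 h. PALLD (palladin, an alpha-actinin partner) ran from -0.59 to -0.30 and was not called with all libraries, with 90.5, 40.9 and 71.999 CPM in the 3 libraries of 24 h. Its 12 h value of -0.35 was -0.74 without replicate 2 and -0.05 without replicate 1, neither called.

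**Figure D3:**
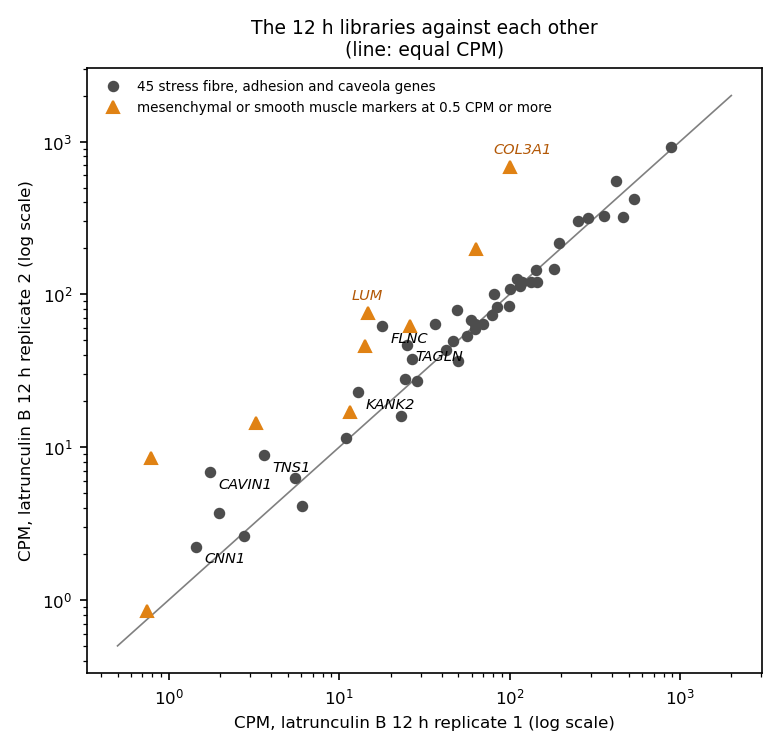
CPM of the 45 genes (circles) and of mesenchymal or smooth muscle markers at 0.5 CPM or more in both libraries (triangles) in LatB 12 h replicate 1 (horizontal) and replicate 2 (vertical), both on log axes, with the line of equal CPM. COL3A1 and LUM lie far above the line, as do FLNC (17.8 and 62.1 CPM) and CAVIN1 (1.75 and 6.87 CPM), while most of the 45 genes lie close to it.

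Adhesion scaffolds, which recruit signalling proteins to integrins, fell as well. TGFB1I1 (Hic-5, a paxillin relative, ENSG00000140682.19, chr16:31471585-31477960, plus strand) stood at 9.45, 10.5 and 10.2 CPM in control 0 h, 11.6 and 10.7 in control 24 h, 4.604, 5.49 and 4.29 at 3 h, 6.39, 4.65 and 4.44 at 6 h, 6.08 and 4.13 at 12 h and 7.199, 5.37 and 6.95 at 24 h. It was at its lower level already at 3 h, and no LatB group overlapped with its control. For TGFB1I1 the log2 change was -1.07 (SE 0.17, adjusted p = 0.000402) at 3 h, -0.96 (SE 0.17, adjusted p = 0.000601) at 6 h, -0.99 (SE 0.20, adjusted p = 0.00189) at 12 h and -0.78 (SE 0.19, adjusted p = 0.00482) at 24 h. PXN (paxillin) was lower at every time, -0.27 ± 0.07 at 3 h, -0.53 ± 0.07 at 6 h, -0.60 ± 0.08 at 12 h and -0.65 ± 0.08 at 24 h, though the 3 h call was lost without control 0 h replicate 2 (-0.21).

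Both tensins of the set, which bind integrin tails and actin, had their lowest group means at 6 h. TNS1 (tensin-1, ENSG00000079308.21, chr2:217799588-218033982, minus strand) stood at 8.81, 10.1 and 11.2 CPM in control 0 h, 11.7 and 11.2 in control 24 h, 8.696, 9.42 and 8.76 at 3 h, 3.46, 3.71 and 2.69 at 6 h, 3.63 and 8.86 at 12 h and 4.61, 6.63 and 5.39 at 24 h. The 3 h libraries overlapped with control and the 6 h libraries lay clear of it. Tested against control, TNS1 differed by -0.16 (SE 0.24, adjusted p = 0.656) at 3 h, -1.60 (SE 0.25, adjusted p = 0.000203) at 6 h, -0.67 (SE 0.27, adjusted p = 0.0718) at 12 h and -1.05 (SE 0.26, adjusted p = 0.00624) at 24 h, and the 12 h value was -1.46, a call, without replicate 2 and -0.18, no call, without replicate 1. TNS3 changed by -0.43 at 3 h, -0.997 at 6 h, -0.30 at 12 h and -0.60 at 24 h. The 12 h value of TNS3 was -0.46 without replicate 2 and was not called without replicate 1 (-0.15).

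SORBS3 (vinexin, a vinculin partner) moved late, with -0.03 ± 0.06 at 3 h, not called, and then -0.26 at 6 h, -0.52 at 12 h and -0.74 at 24 h. PTK2, the gene of focal adhesion kinase, changed little: it changed by -0.11 at 3 h, -0.14 at 12 h and -0.21 at 24 h, and the 3 h call was lost without LatB 3 h replicate 3 (-0.11) or control 0 h replicate 1 (-0.09). Its 12 h value changed sign with an allowance for transcript length, 0.06, where it was not called. BCAR1 (p130Cas, a docking protein) was not called at any time, with values from -0.39 to 0.52, and its 12 h value of -0.39 was -0.66 without replicate 2. The complex of ILK, PINCH (LIMS1) and parvin (PARVA), which joins integrin tails to actin, moved by small amounts, with the lowest value -0.54 for LIMS1 at 12 h. LIMS1 has near-identical copies in the genome and its reads are uncertain. ILK changed by -0.22 at 3 h, -0.30 at 6 h and -0.38 at 12 h, but its 3 h call was lost without any 1 of 5 libraries, all but LatB 3 h replicate 2, with values from -0.24 to -0.20. PARVA was called at 24 h alone, at -0.31.

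PDZ-LIM proteins, which sit on alpha-actinin, were all lower at 12 h and 24 h. PDLIM1 (CLP36, ENSG00000107438.9, chr10:95237572-95291012, minus strand) stood at 194, 209.9 and 197 CPM in control 0 h, 229.5 and 232 in control 24 h, 154, 171 and 109 at 3 h, 147, 141 and 119 at 6 h, 99.96 and 109 at 12 h and 112, 74.96 and 93.8 at 24 h. The difference of PDLIM1 from control was -0.47 (SE 0.15, adjusted p = 0.0311) at 3 h, -0.56 (SE 0.15, adjusted p = 0.0095) at 6 h, -0.94 (SE 0.18, adjusted p = 0.00114) at 12 h and -1.30 (SE 0.17, adjusted p = 6.51e-05) at 24 h. The 3 h call was lost without LatB 3 h replicate 3 or any 1 of the control 0 h libraries (-0.49, -0.45 and -0.48). PDLIM5 was not called at 3 h (-0.01 ± 0.06) and 6 h (0.04 ± 0.06) and changed by -0.49 at 12 h and -0.59 at 24 h. PDLIM7 fell from 6 h on, with -0.72, -0.81 and -0.78.

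The zyxin group of LIM proteins split in direction. FHL1 (four-and-a-half LIM domains 1, ENSG00000022267.19, chrX:136146702-136211359, plus strand) stood at 15.1, 18.6 and 17.5 CPM in control 0 h, 18.7 and 19.2 in control 24 h, 26.8, 25.6 and 30.5 at 3 h, 38.7, 44.5 and 53.8 at 6 h, 23.1 and 15.9 at 12 h and 13.4, 15.4 and 15.8 at 24 h. It was above every control library at 3 h and 6 h and not at 24 h. FHL1 changed on the log2 scale by 0.70 (SE 0.14, adjusted p = 0.00222) at 3 h, 1.42 (SE 0.14, adjusted p = 5.44e-06) at 6 h, 0.19 (SE 0.16, adjusted p = 0.394) at 12 h and -0.35 (SE 0.16, adjusted p = 0.0982) at 24 h. The 12 h value of FHL1 was 0.44 without replicate 2 and -0.10 without replicate 1, neither called. TES (testin, which binds zyxin) rose by 0.25 at 3 h and 0.38 at 6 h, and FHL3 by 0.33 at 6 h, while at 12 h both lay within 0.1 of 0 with and without replicate 2. The TES call at 3 h was lost without LatB 3 h replicate 2 (0.19), control 0 h replicate 2 (0.22) or control 0 h replicate 3 (0.23), and that of FHL3 without LatB 6 h replicate 3 (0.21) or control 0 h replicate 1 (0.25).

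FHL2, a LIM protein that shuttles to the nucleus, took the opposite course. It stood at 6.78, 6.97 and 6.57 CPM in control 0 h, 9.35 and 8.46 in control 24 h, 5.75, 4.76 and 5.52 at 3 h, 4.87, 4.09 and 4.52 at 6 h, 5.51 and 6.26 at 12 h and 12.3, 10.3 and 12.9 at 24 h. Relative to control, the change in FHL2 was -0.34 (SE 0.11, adjusted p = 0.0367) at 3 h, -0.59 (SE 0.12, adjusted p = 0.00109) at 6 h and 0.41 (SE 0.12, adjusted p = 0.0193) at 24 h, lower early and higher late. The 24 h call was lost without LatB 24 h replicate 1 (0.38), LatB 24 h replicate 3 (0.34), control 24 h replicate 1 (0.48) or control 24 h replicate 2 (0.34). The 3 h call was lost without any 1 of 5 libraries, all but LatB 3 h replicate 1, with values from -0.38 to -0.29.

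ZYX (zyxin, the tension sensor of the fibres) stood at 86.97, 99.5 and 92.6 CPM in control 0 h, 98.2 and 102 in control 24 h, 81.7, 83.2 and 78.3 at 3 h, 66.005, 66.2 and 64.7 at 6 h, 62.8 and 59.7 at 12 h and 103, 81.95 and 105 at 24 h. It was called lower at 6 h, -0.50 (SE 0.08, adjusted p = 0.000196), and 12 h, -0.60 (SE 0.09, adjusted p = 0.000197), and overlapped with its control at 24 h (-0.05 ± 0.09). LPP, a zyxin relative, took the other course, with 0.04 ± 0.07 at 3 h and -0.19 ± 0.07 at 6 h, neither called, and then -0.75 at 12 h and -0.88 at 24 h. TRIP6 (a further zyxin relative) changed by -0.31, -0.56 and -0.28 from 6 h on, and LIMA1 (EPLIN, an actin bundler) by -0.54, -0.54 and -0.20. The 24 h calls of both were small. Both were lost without LatB 24 h replicate 2 (TRIP6 -0.20, LIMA1 -0.11), control 24 h replicate 1 (-0.33 and -0.20) or control 24 h replicate 2 (-0.24 and -0.20), and that of TRIP6 also without LatB 24 h replicate 3 (-0.27).

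Of the Ena/VASP proteins, which lengthen filaments at their barbed ends, VASP rose from 6 h on. It stood at 63.6, 63.6 and 63.8 CPM in control 0 h, 61.7 and 67.8 in control 24 h, 66.5, 69.8 and 66.7 at 3 h, 79.8, 82.03 and 84.3 at 6 h, 79.2 and 73.5 at 12 h and 87.95, 82.97 and 92.9 at 24 h. Against its controls VASP changed by 0.37 (SE 0.05, adjusted p = 7.80e-05) at 6 h, 0.26 (SE 0.06, adjusted p = 0.00303) at 12 h and 0.44 (SE 0.06, adjusted p = 6.51e-05) at 24 h, and VASP was the single member higher at 12 h. With an allowance for transcript length VASP was not called at 12 h. ENAH (Mena) rose early, by 0.31 at 3 h and 0.33 at 6 h (0.15 at 12 h without replicate 2, against 0.08, neither called) and was not called at 24 h (0.01 ± 0.05). EVL changed by -0.27 at 6 h, -0.28 at 12 h and -0.41 at 24 h, and each of these calls was lost without 1 control library: control 0 h replicate 2 at 6 h (-0.20) and 12 h (-0.20), control 0 h replicate 3 at 6 h (-0.27) and 12 h (-0.28), and control 24 h replicate 1 at 24 h (-0.30). At 12 h it was also lost without LatB 12 h replicate 2 (-0.17).

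The caveola genes were low in these cells. CAVIN1 (cavin-1, the coat protein of caveolae, ENSG00000177469.13, chr17:42402449-42423256, minus strand) stood at 7.09, 4.66 and 5.34 CPM in control 0 h, 5.29 and 7.01 in control 24 h, 2.91, 2.27 and 1.36 at 3 h, 1.64, 2.04 and 2.07 at 6 h, 1.75 and 6.87 at 12 h and 2.35, 1.23 and 1.56 at 24 h. Apart from LatB 12 h replicate 2, every LatB library was below every control. For CAVIN1 the log2 change was -1.38 (SE 0.41, adjusted p = 0.0204) at 3 h, -1.57 (SE 0.42, adjusted p = 0.00818) at 6 h, -0.39 (SE 0.45, adjusted p = 0.537) at 12 h and -1.84 (SE 0.45, adjusted p = 0.00525) at 24 h, and at 12 h it was -1.70, a call, without replicate 2 and 0.27, no call, without replicate 1. The 3 h call was lost without LatB 3 h replicate 2 (-1.43), LatB 3 h replicate 3 (-1.15) or control 0 h replicate 1 (-1.19). With all libraries CAV1 (caveolin-1) was called at 3 h alone (-0.69 ± 0.24), and without control 0 h replicate 1, its highest library, the value was -0.45 and no call. The CAV1 call was also lost without LatB 3 h replicate 1, 2 or 3 (-0.70, -0.70 and -0.72) or control 0 h replicate 3 (-0.76). At 12 h CAV1 was -0.06 with both libraries, -0.58 without replicate 2 and 0.32 without replicate 1, none of them called.

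Direct comparison of LatB times shows where the set moved between them. From 3 h to 6 h, 18 of the 45 genes were lower and 2 higher (background 10.3% and 11.9%). The largest falls were those of TNS1, -1.44 (SE 0.25, adjusted p = 0.00142), and TLN2, -1.36 (SE 0.17, adjusted p = 0.000153), and the 2 genes that rose were FHL1, 0.72 (SE 0.14, adjusted p = 0.00259), and VASP, 0.28 (SE 0.05, adjusted p = 0.00187). Without LatB 6 h replicate 3, 12 members were called, and without LatB 3 h replicate 2, 13. The shares of all genes called were 15.2% and 18% in these fits, against 22.2% with all libraries. With each library left out in turn, 10 of the 20 calls held throughout.

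From 6 h to 24 h of LatB the set divided, with 14 genes lower and 12 higher (background 18.9% and 19.0%). FHL2 rose most, 1.39 (SE 0.12, adjusted p = 1.87e-06), before FERMT1, 0.78 (SE 0.12, adjusted p = 0.000181), TNS1, 0.75 (SE 0.25, adjusted p = 0.0317), KANK2, 0.69 (SE 0.15, adjusted p = 0.00262), and ZYX, 0.56 (SE 0.08, adjusted p = 0.000117). Time is not controlled in this comparison, and FHL2 also stood 0.39 higher in control 24 h than in control 0 h, not called. ACTN1, CNN2, VCL, TNS3, FLNA, LIMA1 and CNN3 rose by 0.27 to 0.55. In the other direction TAGLN, -2.14 (SE 0.36, adjusted p = 0.000472), and FHL1, -1.62 (SE 0.14, adjusted p = 3.02e-06), fell most, before TAGLN2, -0.68 (SE 0.11, adjusted p = 0.000392). LPP, PDLIM5, PDLIM1, ACTN4, SORBS3, CALD1, TES, FHL3, ENAH, LIMS1 and PTK2 fell too, from -0.56 (LPP) to -0.15 (PTK2). This split depends on scaling: with no scaling beyond library totals, which moved the median of all genes from 0.002 to 0.137, 18 members were higher and 9 lower. Of all genes called, 73.8% were then higher, against 50.1% with TMM. The calls of TNS1, CALD1, PDLIM1 and FHL3 were lost without single libraries. Without LatB 24 h replicate 2, TNS1 was 0.60, CALD1 -0.32, PDLIM1 -0.40 and FHL3 -0.24. Without LatB 6 h replicate 1, TNS1 was 0.79, CALD1 -0.42 and PDLIM1 -0.48. TNS1 and FHL3 were also lost without LatB 24 h replicate 3 (0.77 and -0.30) or LatB 6 h replicate 3 (0.63 and -0.20), and FHL3 without LatB 6 h replicate 2 (-0.34). FERMT2 (0.37) and ILK (0.26) were called without LatB 24 h replicate 2, and TGFB1I1 (0.52) without LatB 6 h replicate 1, but none of the 3 with all libraries.

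**Figure D4:**
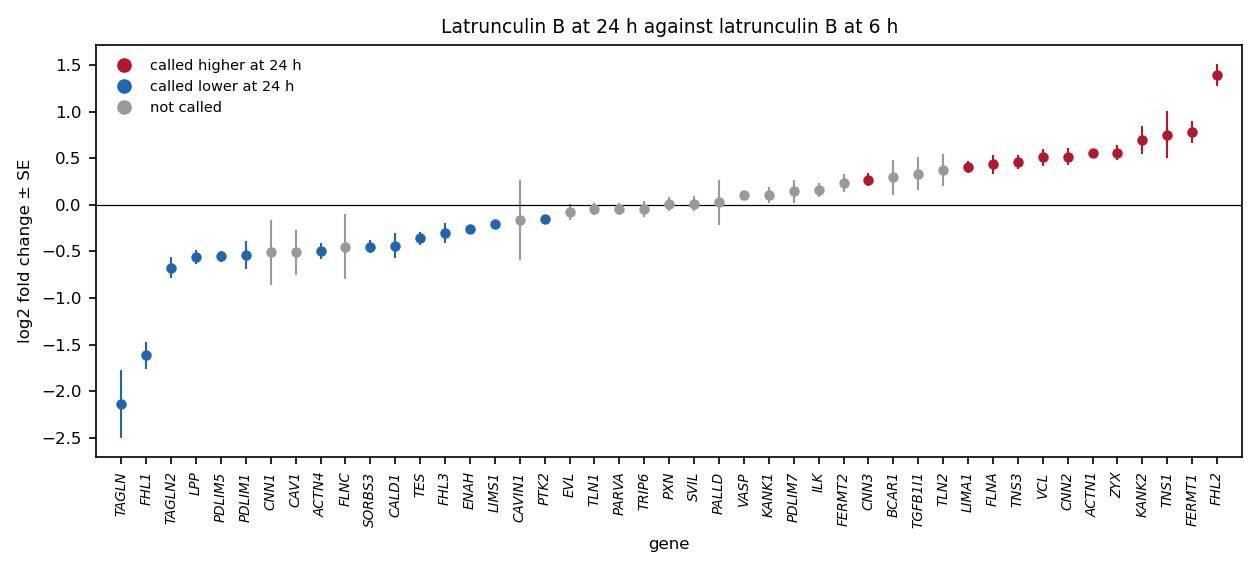
Log2 fold change from 6 h to 24 h of LatB (vertical axis, points with SE bars) for each of the 45 genes in ascending order, coloured by call. TAGLN and FHL1 lie lowest at -2.14 and -1.62 and FHL2 highest at 1.39.

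The effect at 24 h (against control 24 h) minus that at 3 h (against control 0 h) tests the difference between these effects with no shared libraries. Control 0 h is described as taken before treatment. A change in drug effect thus cannot be told apart from a response to time or vehicle within the first 3 h. It was called for 16 of the 45 genes, 14 lower and 2 higher (background 13.4% and 14.6%), with a median of -0.23. With no scaling the calls were 10 lower and 4 higher, and 69% of all called genes were higher, against 52.1% with TMM. Among the called genes TAGLN had the largest value, -2.49 (SE 0.51, adjusted p = 0.00276), followed by TLN2, -1.22 (SE 0.25, adjusted p = 0.00296), and FHL1, -1.04 (SE 0.21, adjusted p = 0.00293). FHL2, 0.75 (SE 0.17, adjusted p = 0.00542), and VASP, 0.35 (SE 0.08, adjusted p = 0.00394), were the 2 higher ones. CNN1, at -1.30, was not called with all libraries but was without LatB 24 h replicate 1 (-1.67) or LatB 3 h replicate 3 (-1.54).

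Genes around the set did not move as a block. For these genes the 12 h values and counts were not checked without LatB 12 h replicate 2. Of 38 paralogs of the members outside the list, 30 were tested. At 3 h 5 were higher and 5 lower, at 6 h 6 and 11, at 12 h 5 and 8, and at 24 h 2 and 9, with medians of -0.03, -0.34, -0.17 and -0.22. The shares higher were 16.7%, 20%, 16.7% and 6.67%, against 16.8%, 22.9%, 19.1% and 21.9% of all genes, and the shares lower 16.7%, 36.7%, 26.7% and 30%, against 14.7%, 20.4%, 16.8% and 18.8%. LIMS2 (PINCH-2) changed by -1.03 ± 0.30, -2.66 ± 0.40 and -2.41 ± 0.34 (log2 ± SE) at 3 h, 12 h and 24 h. LDB3 (ZASP, a muscle PDZ-LIM protein) changed by -2.38 ± 0.27, -2.42 ± 0.32 and -2.32 ± 0.28 at 6 h, 12 h and 24 h. KANK4 changed by -2.22 ± 0.20 at 6 h, and AJUBA, a zyxin relative, by -0.999 ± 0.09 at 3 h. FERMT3 (kindlin-3, the blood cell kindlin) rose by 2.42 ± 0.36, 1.47 ± 0.36 and 1.64 ± 0.39 at 3 h, 6 h and 12 h. TAGLN3, the neuronal transgelin, rose by 2.89 ± 0.90 at 12 h and 3.44 ± 0.84 at 24 h.

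Of 22 adaptors and kinases of adhesion signalling, 7 were higher and 1 lower at 3 h, 11 and 2 at 6 h, 5 and 3 at 12 h, and 5 and 2 at 24 h, with medians of 0.12, 0.18, -0.03 and 0.03. The shares higher were 31.8%, 50%, 22.7% and 22.7%, so that those at 12 h and 24 h were near the 19.1% and 21.9% of all genes, and the shares lower were 4.55%, 9.09%, 13.6% and 9.09%. CRK and GRB2, both SH2 and SH3 adaptors, rose by 0.63 ± 0.04 and 0.42 ± 0.05 at 3 h, ASAP1 by 0.68 ± 0.08 at 6 h, and ELMO1, a RAC activator, by 0.67 ± 0.12 at 12 h and 0.86 ± 0.13 at 24 h. APBB1IP (RIAM, which brings talin to integrins) changed by -1.69 ± 0.56 at 6 h.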

How the data were processed

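RNA of 16 libraries (6 groups, by their labels) was sequenced from poly(A)-selected libraries. The tables deposited by the authors list transcripts in Salmon format (Salmon 1.3.0 and hg38 per the submitters' processing notes), whereas the study's methods name STAR as the aligner, so the upstream settings are uncertain. Estimated counts, which Salmon gives by sharing reads among 177456 transcripts, were deposited by the authors unnormalised, and TPM (abundance per transcript length) stands beside them as deposited. Use of strand is not given in the sources used here, so reads of antisense or near-identical genes may be shared. A table of the authors' own DESeq2 comparisons, with log2 fold changes and p-values, was not used, nor were its 16 columns of per-sample values.

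Transcripts were joined to genes through GENCODE release 44 (165533 matched, and 2.92% to 3.17% of the reads of a library did not), summed and rounded. edgeR 4.0.16 in R 4.3.3 was run on the counts of all 6 groups in 1 fit with TMM scaling (factors 0.947 to 1.05) and filterByExpr. Its two-sided quasi-likelihood test was used for every log2 fold change, SE and adjusted p printed (Benjamini-Hochberg over 16705 genes, called under 0.05), and the fit was tested on simulated counts. The 16 libraries hold no vehicle group at 3, 6 or 12 h. Alternatives were DESeq2 1.42.0, RLE or no scaling, other filters, a transcript length offset, a replicate block, only the compared groups, limma-trend 3.58.1 on log2(TPM + 1), other references and each library left out.

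The 45 members, the lists around them and the motifs were chosen with earlier results of these data known. Values in every library are given by rule for members called with an absolute log2 fold change of at least 1 or a rise of at least 0.5 at any LatB time, or among the 5 highest in TPM at 0 h (16 genes). ZYX, FHL2, VASP and PALLD were added after their values were seen. Of each list around the set, at most the 2 largest called rises and falls per LatB time were named. The result of 1 further list is not reported here. Replicate numbers did not pair the libraries: deviations from group means of same-numbered libraries correlated from -0.24 to 0.12 (median -0.02, 36 pairs).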

Additional observations from a re-analysis of the deposited data

Results flagged for a closer look

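For 16 of the 45 genes the effect of LatB at 24 h differed from that at 3 h by edgeR's test of the difference itself, at an adjusted p under 0.05. Of all 16705 genes tested, 27.9% were called in this way, 13.4% lower and 14.6% higher. The values below are log2 differences, the effect at 24 h against control 24 h minus that at 3 h against control 0 h. The difference was -2.49 for TAGLN, -1.22 for TLN2, -1.04 for FHL1, -0.92 for LPP, -0.92 for CALD1, -0.83 for PDLIM1, -0.79 for ACTN4, -0.71 for SORBS3, -0.58 for PDLIM5, -0.54 for PDLIM7, -0.38 for PXN, -0.36 for TES, -0.30 for ENAH and -0.29 for LIMS1. It was 0.75 for FHL2 and 0.35 for VASP. For 4 of these genes the effects at 3 h and 24 h lay on opposite sides of 0 (FHL1 0.70 and -0.35, FHL2 -0.34 and 0.41, TES 0.25 and -0.11, LPP 0.04 and -0.88), of which the 24 h values of FHL1 and TES and the 3 h value of LPP were not called against control. With each of the 11 libraries of these 4 groups left out in turn, 11 of the 16 calls held throughout. PDLIM7 was lost in 7 of the 11 fits, PXN in 5, TES in 2 (without LatB 3 h replicate 2, -0.30, or control 24 h replicate 2, -0.33), LIMS1 in 1 (without control 24 h replicate 2, -0.23) and PDLIM1 in 1 (without control 24 h replicate 1, -0.84). PDLIM7 was lost without LatB 24 h replicate 2, LatB 3 h replicate 1 or 2, control 0 h replicate 1 or 3, or control 24 h replicate 1 or 2, and PXN without LatB 3 h replicate 1 or 2, control 0 h replicate 3, or control 24 h replicate 1 or 2. Over all 11 fits PDLIM7 ran from -0.666 to -0.408 and PXN from -0.445 to -0.325. EVL (-0.41 without control 0 h replicate 2), PARVA (-0.25 without LatB 3 h replicate 3), SVIL (-0.36 without LatB 24 h replicate 3) and ZYX (0.26 without LatB 24 h replicate 2) were called in those fits and not with all libraries.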

How the results depend on the processing

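Of the 118 calls of members over the 4 LatB comparisons, 94 held under every alternative other than a left-out library or a larger fold. All 118 held with DESeq2, RLE size factors, a mean of at least 50 counts or both controls pooled. With no scaling 114 held, with no filter 113, with the replicate block 112, with the other control as the reference 111, with only the compared groups 109, with the transcript length offset 104 and with limma-trend on log2(TPM + 1) 102. The cause of these losses was not tested. With an added demand for an absolute log2 fold change of at least 1, the members called were 4 at 3 h, 10 at 6 h, 7 at 12 h, 9 at 24 h, 2 from 3 h to 6 h, 3 from 6 h to 24 h and 3 for the difference of effects. The shares of all genes meeting this demand were not counted, so these counts have no background beside them. From 3 h to 6 h, 12 members were called with the length offset and 9 with limma-trend, which also called 9 for the difference of effects. The share of all genes called from 3 h to 6 h fell too, from 22.2% to 12.1% with the length offset and 10.5% with limma-trend. For the difference of effects it was 17.6% with limma-trend, against 27.9%. PTK2 changed sign at 12 h with the length offset (0.057) and limma-trend (0.060), and from 6 h to 24 h with limma-trend (0.039). With single libraries left out, the count ran from 12 to 20 at 3 h and from 12 to 18 from 3 h to 6 h, while at 12 h KANK1 ran from -0.226 to 0.21 and KANK2 from -0.426 to 0.409, and the other counts stayed within 1.5 times. In those fits the share of all genes called ran from 24.9% to 28.2% at 3 h. From 3 h to 6 h it ran from 15.2% to 18%. The replicate numbers pair nothing in the labels, and with a replicate block the counts were 20 at 3 h, 37 at 6 h, 31 at 12 h, 28 at 24 h, 0 between controls, 19 from 3 h to 6 h, 26 from 6 h to 24 h and 15 for the difference of effects. The shares of all genes called with the block, in the same order, were 29.1%, 41.1%, 32.1%, 35.9%, 0.0359%, 19.4%, 35.3% and 24.6%. Without scaling, the median of all genes moved from -0.01 to -0.10 at 6 h and from 0.002 to 0.137 from 6 h to 24 h. Depth limits CAV1, CAVIN1, FERMT1 and TNS1, with 40 to 358 reads per library. It also limits CNN1 in LatB, with 33 and 66 reads at 12 h and 64 in LatB 24 h replicate 2.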

Other observations

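Which transcript of a gene held its reads also varied for some members, by Salmon's estimate, which shares reads among similar transcripts and was not tested. TNS1-222 held a mean of 55.9% of the TNS1 TPM in control 0 h, 62.3% in control 24 h, 61.1% at 3 h of LatB, 9.6% at 6 h, 0% at 12 h and 12.4% at 24 h, and TNS1-201 held 11.9%, 3.3%, 25.1%, 37.6%, 27.4% and 66.5% in the same groups, but single libraries varied widely. In control 0 h TNS1-222 ran from 27.1% to 92.2%, at 6 h TNS1-201 ran from 0% to 80.9%, and at 12 h TNS1-220 held 15.6% in one library and 82.6% in the other. All 3 transcripts are annotated as coding. TNS1 is among the genes with the fewest reads. The share of TAGLN-206 in the TAGLN TPM was 28.7% in control 24 h and 8.3% at 24 h of LatB (means, with 27.2% and 30.2%, and 0% to 14.3%, over libraries), the group where TAGLN was lowest.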
